A study of Homo sapiens with 26 samples.

Results

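Total RNA of HEK293T cells, a human embryonic kidney line, was compared between cells that received no cycloheximide (CHX) and cells that did. The comparison rests on 3 of the 26 samples of the study, all RNA-seq total inputs, namely 1 library without CHX and 2 replicate libraries with CHX. These total inputs are whole-lysate RNA taken before streptavidin pulldown, so they report mRNA levels in the cell and not association with mitochondria. The libraries with CHX came from wild-type cells carrying a negative control gRNA, which were given 100 μg/mL CHX 2 min before 50 μM biotin and 10 min of blue light. The library without CHX came from 1 lysate given biotin and blue light for 1 min, and its labels name neither a genotype nor a gRNA. Per the methods of the study, the cells carry an Avi tag on the ribosomal protein RPL29 at its own locus and LOV-BirA, a light-controlled biotin ligase fused to GFP and the OMP25 transmembrane domain, expressed from the EF1α promoter of a lentivirus. The absence of CHX, the shorter light and biotin, any difference of line and the identity of the 1 lysate cannot be told apart in these data, and no p-value is given. Nothing in the labels says whether the 2 replicates with CHX were separate cultures.

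CHX stops translating ribosomes on the mRNA and thereby stops protein synthesis. Because decay of many short-lived transcripts and nonsense-mediated decay (NMD) both depend on translation, and because repressors of immediate-early genes are themselves short-lived proteins, translation inhibitors are known to raise immediate-early, short-lived and NMD-sensitive mRNAs when applied for long enough. Stress programmes form a second layer, since the integrated stress response lowers bulk translation through eIF2α phosphorylation while favouring the transcription factor ATF4, p53 responds to DNA and ribosome damage, and HSF1 raises chaperone genes when misfolded proteins accumulate. HEK293T cells carry SV40 large T antigen, which binds p53.

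The gene counts held 92886870 reads without CHX against 38347615 and 45939432 with CHX, and 15535 of 60663 genes had at least 64 reads in 1 of the groups. Of these, 2108 reached the minimum only through the deeper library without CHX and 29 only through the libraries with CHX. All 10 markers of HEK293 cells were measured, with summed levels of 952 counts-per-million (CPM) without CHX and 667 and 676 with CHX. Most of each sum was VIM, at 696 CPM without CHX and 477 and 484 with CHX. Of the 10 markers, 2 passed the minimum only through the library without CHX. Of 15 markers of other cell types, 2 passed the minimum, both at low level and COL1A1 among them, and CD3E, HBB, HBA1, INS, MYH7 and SFTPC had 0 reads in all 3 libraries. AKAP1, at 86.8 CPM without CHX and 112 and 122 with CHX, and LARP4, at 212 against 220 and 236, were near the libraries with CHX, whereas the AKAP1 null line had AKAP1 at 20.2 and 32.2 CPM and the LARP4 null line had LARP4 at 75.6 and 78.8 CPM. All levels are CPM after TMM scaling, and each difference is the log2 level without CHX minus the mean log2 level of the 2 libraries with CHX.

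Across all genes measured the median difference was 0.07 with an SD of 0.66. Replicate 2 minus replicate 1 with CHX had a median of -0.01 and an SD of 0.56. The SDs are not like for like, since only the first difference uses a mean of 2 libraries. A gene was counted as higher or lower without CHX when it differed by at least 2-fold and lay outside both libraries with CHX, which held for 1122 genes (7.22%) higher and 478 genes (3.08%) lower. Protein-coding genes made up 660 of the higher and 362 of the lower genes, and lncRNAs made up 387 and 55. Of the 1122 higher genes, 675 reached the minimum of reads only through the library without CHX, which is also the deepest of the 3, and this leaves 447 of the higher genes with at least 64 reads in both groups. The spread between the libraries with CHX was itself wide at low counts, since 861 genes (5.54%) differed at least 2-fold between them.

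**Figure D1:**
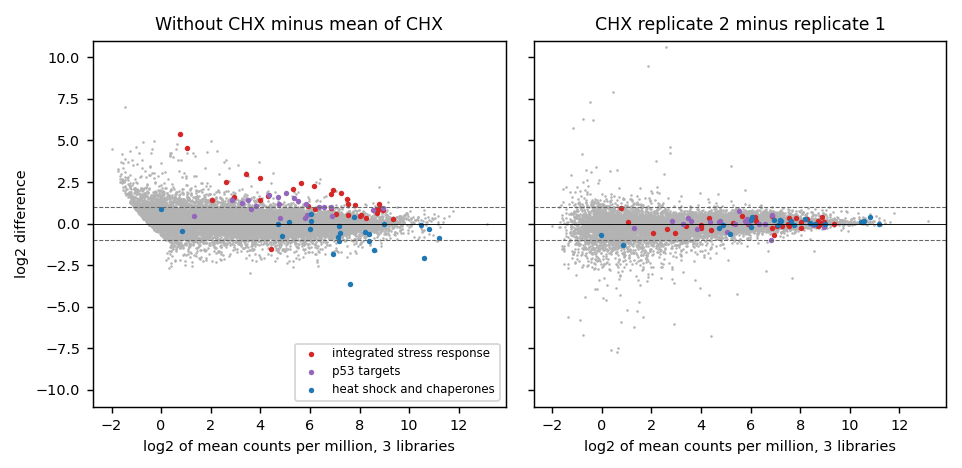
Each point is a gene measured, with the log2 of its mean CPM over the 3 libraries on the x axis and a log2 difference on the y axis, either without CHX minus the mean with CHX (left) or replicate 2 minus replicate 1 with CHX (right). Dashed lines mark 2-fold, and members of the integrated stress response (red), p53 (purple) and heat shock (blue) lists are coloured in both panels. The red and purple points lie above 0 apart from 1 red point at -1.51, and the same genes scatter around 0 between the libraries with CHX.

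Genes of the integrated stress response lay above both libraries with CHX almost throughout. Of 36 genes listed, 34 were measured, with a median difference of 1.18, and 20 of them were at least 2-fold higher against a background of 7.22% of all genes measured. All but 1 of the 34, that is 33, lay above both libraries with CHX, where 45.5% of all genes did, and 33 lay above all 6 other total inputs of the study, where 36.2% of all genes did. Those 6 add the AKAP1 null and LARP4 null lines, 2 replicates each, which are monoclonal and whose CHX treatment the labels do not state. For each of the 34 members the difference was larger than the gap between the 2 libraries with CHX, beside 65.8% of all genes measured. In RNA of a whole culture, a change in every cell and a larger change in some of the cells cannot be told apart.

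Among the transcription factors and feedback regulators of this response, DDIT3, which encodes the pro-apoptotic factor CHOP, stood at 36.5 CPM without CHX and at 5.65 and 5.26 CPM with CHX, a log2 difference of 2.74. ATF3, a stress-induced repressor that was listed with the immediate-early genes, stood at 169 CPM against 29.9 and 30.6 (2.48), and TRIB3, a pseudokinase that restrains ATF4 and CHOP, at 80.0 against 18.7 and 19.5 (2.07). The 4 total inputs of the null lines lay between 4.604 and 6.16 CPM for DDIT3, between 19.8 and 32.1 for ATF3 and between 16.2 and 23.0 for TRIB3, so all 6 other libraries sat in 1 narrow band well below the library without CHX. CEBPG, a dimer partner of ATF4, was also higher, at 313 CPM against 112 and 113. The mRNA of ATF4 itself, whose regulation is largely translational, differed little, with 728 CPM against 614 and 607 and a log2 difference of 0.25. ATF5, which is likewise controlled through upstream open reading frames, was the exception of the list, at 9.50 CPM without CHX against 30.8 and 23.9 with CHX, a difference of -1.51 that was also seen in the pulldowns (-1.78).

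Some effectors of the response were farther still from the libraries with CHX. CHAC1, which degrades glutathione, stood at 25.4 CPM without CHX and at 3.33 and 2.97 CPM with CHX (3.01). The stress-induced hormone GDF15 had 531 reads without CHX and 9 and 11 with CHX, and the small chromatin protein NUPR1 had 452 reads against 3 and 7, ratios of 24.3 (95% counting interval 15.5 to 40.0) and 41.3 (22.3 to 86.7) after scaling. Both passed the minimum of reads only through the library without CHX, and the intervals cover counting error only. Among genes of amino acid supply, CTH of cysteine synthesis stood at 151 CPM against 26.9 and 36.2, the cystine transporter gene SLC7A11 at 245 against 76.9 and 46.9, and ASNS, asparagine synthetase, at 7.15 against 3.26 and 2.20. PCK2, the mitochondrial phosphoenolpyruvate carboxykinase, was at 109 CPM against 17.1 and 23.1, and SESN2, which restrains mTORC1, at 219 against 70.4 and 59.3. The serine and one-carbon enzymes PHGDH (0.64), PSAT1 (0.97), PSPH (1.03), SHMT2 (1.12), MTHFD2 (1.17) and ALDH1L2 (1.86) were all above both libraries with CHX, with ALDH1L2 farthest from them. Of the 2 listed genes under the minimum, FGF21 had 52 reads against 4 and 2, and ADM2 had 2, 0 and 0.

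ATF4 and its partners bind a C/EBP-ATF response element, and promoters of the measured members were searched for its core, TGATGNAA, on both strands over the 250 bases before the start in RefSeq windows (GRCh38.p14). The core was present for 7 of the 28 members with a window (25%), beside 265 of 11253 genes measured with a window (2.35%) and 3.89% of all 27305 genes with a window. The 7 genes were AARS1, ASNS, CEBPG, CHAC1, GARS1, JDP2 and SLC1A5. A match in these letters is a description and not evidence of binding. The windows of 2 of them are shown, with the core in capitals, because they combine the element with a clear difference in level. The ASNS window spans chr7:97872409-97872658 on the minus strand, with the core beginning 68 bases before the start, and the CHAC1 window spans chr15:40953221-40953470 on the plus strand, with the core on the opposite strand from 209 bases before the start.
ASNS: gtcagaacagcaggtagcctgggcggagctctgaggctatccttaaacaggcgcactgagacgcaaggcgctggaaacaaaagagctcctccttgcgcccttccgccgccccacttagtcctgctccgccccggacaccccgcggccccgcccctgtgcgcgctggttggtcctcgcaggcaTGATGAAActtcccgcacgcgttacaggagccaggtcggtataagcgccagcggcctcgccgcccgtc
CHAC1: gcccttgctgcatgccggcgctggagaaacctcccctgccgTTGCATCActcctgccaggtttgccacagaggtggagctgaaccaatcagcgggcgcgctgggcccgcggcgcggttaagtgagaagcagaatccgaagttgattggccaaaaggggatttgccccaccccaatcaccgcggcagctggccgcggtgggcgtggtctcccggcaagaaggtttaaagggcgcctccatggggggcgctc

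**Figure D2:**
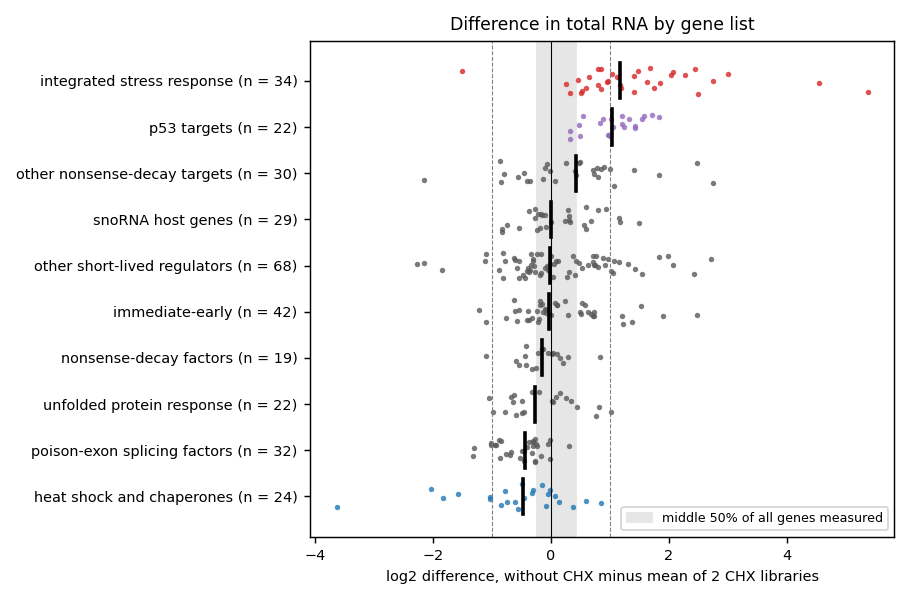
Each point is a gene measured, placed on the x axis by its log2 difference without CHX minus with CHX, for 10 gene lists on the y axis. Black bars are list medians, grey shading holds the middle 50% of all genes measured, and dashed lines mark 2-fold. The integrated stress response and p53 lists lie to the right of the shading with medians of 1.18 and 1.04, the heat shock and splicing factor lists to the left with medians of -0.47 and -0.43, and genes that belong to 2 lists appear in both.

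Targets of p53 shared this direction without exception. All 22 listed genes were measured and all 22 lay above both libraries with CHX and above all 6 other total inputs, beside 45.5% and 36.2% of all genes measured. The median difference was 1.04, and 13 of the 22 were at least 2-fold higher, beside 7.22% of all genes. CDKN1A, which encodes the cell cycle inhibitor p21, stood at 73.3 CPM without CHX and at 25.5 and 24.97 CPM with CHX (1.54). GADD45A, a growth arrest gene that p53 shares with other stress pathways, stood at 62.9 against 20.9 and 14.9 (1.84), and DDB2, a DNA damage recognition factor, at 46.8 against 15.3 and 16.1 (1.58). The null lines ranged from 22.6 to 33.4 CPM for CDKN1A and from 15.5 to 18.8 CPM for DDB2, and thus did not reach the library without CHX. SPATA18, a mitochondrial quality control gene, differed by 1.71, and the pro-apoptotic BBC3 and PMAIP1 differed by 1.43 and 1.01. The negative regulator MDM2 stood at 727 CPM against 399 and 348 (0.97). TIGAR (0.32) and BAX (0.33) were closest to the libraries with CHX. The sum over the list was 2518 CPM without CHX and 1347 and 1292 with CHX.

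Most heat shock and chaperone genes went the other way, in a list that also holds mitochondrial chaperonins and the factor genes HSF1 and HSF2. Of 27 genes listed, 24 were measured, with a median of -0.47, and 6 were at least 2-fold lower without CHX, against a background of 3.08%, while 0 were 2-fold higher. Below both libraries with CHX lay 17 members, where 35.7% of all genes did, and 15 lay below all 6 other total inputs, where 24.0% did. HSPA1B, the inducible HSP70, showed the largest fall of all 15535 genes, with 22.7 CPM without CHX against 266 and 298 CPM with CHX and between 286 and 443 CPM in the null lines (-3.64). Its near-identical copy HSPA1A had 6, 31 and 40 reads, so counting placed nearly all reads of the pair on HSPA1B, and the split between them is uncertain. Summed over both genes the level was 22.7 CPM against 267 and 299, that is 12.4-fold lower. The constitutive HSP70 gene HSPA8 stood at 498 CPM against 1921 and 2177 (-2.04). The HSP40 co-chaperones DNAJB1 and DNAJA1 stood at 45.1 against 150 and 173 (-1.84) and at 166 against 500 and 486 (-1.57). HSPE1, the mitochondrial co-chaperonin, and HSPH1, an HSP70 nucleotide exchange factor, both differed by -1.03, and HSP90AA1 by -0.85.

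Other members of the list included some near the libraries with CHX or above them. Above both libraries with CHX lay 4 of the 24 measured, and the highest difference in the list was 0.86. HSPD1, the mitochondrial chaperonin, differed by -0.09, HSPA4 by -0.04 and HSPB1 by 0.07, and the factor genes HSF1 and HSF2 by 0.14 and 0.60. CRYAB was under the minimum, with 58 reads without CHX and 1 and 1 with CHX. The 4 measured members with the largest differences were the HSP70 genes HSPA1B and HSPA8 and the HSP40 genes DNAJB1 and DNAJA1. HSPB1, the small heat shock protein gene that was measured, and the factor genes HSF1 and HSF2 did not share their direction.

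The heat shock element is built from inverted nGAAn units, and the pair GAANNTTC, which is its own reverse complement, was searched for in the same windows. It was found for 12 of the 22 heat shock members with a window (54.5%), beside 657 of 11253 genes measured (5.84%) and 7.05% of all genes with a window. Among all genes at least 2-fold lower it was found for 18 of the 292 with a window (6.16%), near the share of genes measured. Within the list, HSPD1 and HSPB1, near the libraries with CHX, held the pair, whereas HSPE1 and HSPH1, which were lower, did not. Windows of 3 of the lowest list members that held the pair are shown, with the pair in capitals. That of HSPA1B spans chr6:31827488-31827737 on the plus strand and holds 1 pair, 105 bases before the start. The HSPA8 window, chr11:123062137-123062386 on the minus strand, holds pairs at 230 and 50 bases before the start, and the DNAJB1 window, chr19:14518398-14518647 on the minus strand, at 77 and 47 bases. As above, a match describes the letters only.
HSPA1B: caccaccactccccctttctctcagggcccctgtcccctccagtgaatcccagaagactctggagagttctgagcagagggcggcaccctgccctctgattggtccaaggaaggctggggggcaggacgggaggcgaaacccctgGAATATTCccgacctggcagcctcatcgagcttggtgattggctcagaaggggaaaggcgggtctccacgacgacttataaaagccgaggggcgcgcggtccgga
HSPA8: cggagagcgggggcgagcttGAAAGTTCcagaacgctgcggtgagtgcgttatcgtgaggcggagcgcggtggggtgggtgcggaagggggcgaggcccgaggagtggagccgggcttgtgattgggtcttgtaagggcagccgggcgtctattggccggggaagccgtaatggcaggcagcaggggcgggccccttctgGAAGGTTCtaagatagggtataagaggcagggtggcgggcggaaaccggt
DNAJB1: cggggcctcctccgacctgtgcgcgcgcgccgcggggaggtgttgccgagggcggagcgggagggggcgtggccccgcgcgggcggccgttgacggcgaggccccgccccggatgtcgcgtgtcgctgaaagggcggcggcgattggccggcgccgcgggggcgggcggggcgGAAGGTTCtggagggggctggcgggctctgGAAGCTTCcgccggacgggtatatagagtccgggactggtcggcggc

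The unfolded protein response of the ER was split. Its 22 genes had a median of -0.26. At least 2-fold higher was 1 gene (4.55%) and at least 2-fold lower was 1 (4.55%), beside 7.22% and 3.08% of all genes measured. ER chaperone genes were below both libraries with CHX, such as HSPA5, which encodes BiP, at 390 CPM against 673 and 551 (-0.64), HYOU1 at 136 against 292 and 271 (-1.05), and CALR (-0.68) and PDIA4 (-0.49). XBP1, the transcription factor activated by IRE1, was above both at 333 CPM against 174 and 155 (1.02), as were the ubiquitin adaptor HERPUD1 (0.82) and ERN1, which encodes IRE1 itself (0.77). Oxidative and metal stress genes did not move as a group, with 20 of 25 measured, a median of -0.05, and 0 members past 2-fold in either direction. Of these, PRDX1, a peroxidase, differed by -0.87 and HMOX1, heme oxygenase, by -0.74, but for HMOX1 replicate 2 minus replicate 1 with CHX was -0.81.

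**Figure D3:**
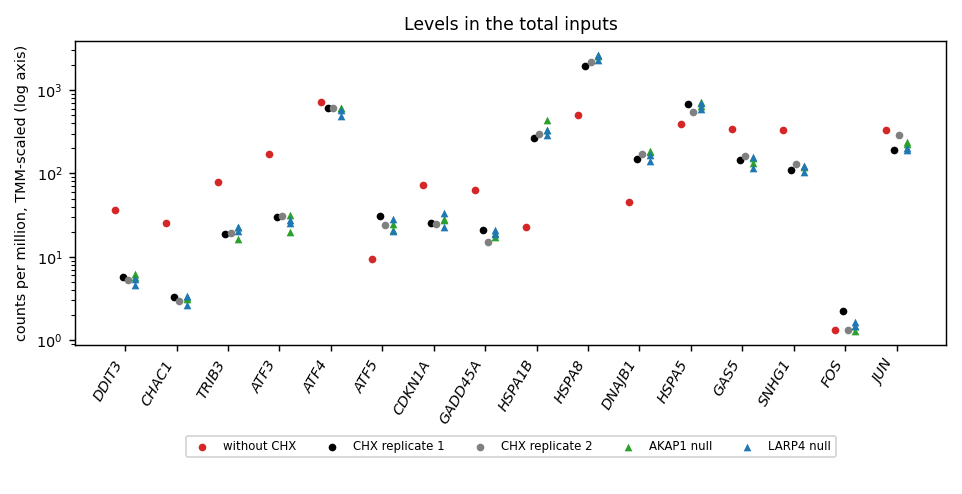
Levels of 16 genes on a log axis of TMM-scaled CPM, with 1 point per library for the library without CHX (red), the 2 libraries with CHX (black and grey) and the 4 total inputs of the null lines (triangles), the last scaled over all 7 total inputs. DDIT3, CHAC1, TRIB3, ATF3, CDKN1A, GADD45A, GAS5 and SNHG1 are highest in the library without CHX, while ATF5, HSPA1B, HSPA8, DNAJB1 and HSPA5 are lowest there, and FOS lies among the other libraries.

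Immediate-early genes did not move in 1 direction. Of 47 listed, 42 were measured, with a median of -0.04 (0.14 without replicate 1 with CHX and -0.15 without replicate 2), 6 at least 2-fold higher and 2 at least 2-fold lower without CHX, beside 7.22% and 3.08% of all genes measured. Above both libraries with CHX lay 16 members (38.1%), below both 13 (31.0%), and between them 13, and both shares are under those of all genes measured, 45.5% and 35.7%. The library without CHX differed from the mean by more than the gap between the libraries with CHX for 19 of the 42. Over all genes measured this held for 65.8%. The libraries with CHX themselves differed, with replicate 2 below replicate 1 for 32 members and by a median of -0.33. FOS, the founding member of the class, stood at 1.33 CPM without CHX and at 2.27 and 1.31 CPM with CHX. JUN stood at 328 against 189 and 286, MYC at 177 against 94.0 and 161, and EGR1 at 6.98 against 6.87 and 2.73. FOS thus lay inside the range of the libraries with CHX, and of the other 3 genes JUN lay farthest above that range, by 0.20 on the log2 scale against replicate 2 (MYC by 0.14).

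The 6 members past 2-fold were ATF3 (2.48), KLF10 (1.90), MAFF (1.53), RHOB (1.37), EGR3 (1.22) and BTG2 (1.20), of which BTG2 is also on the p53 list. KLF10, a TGFβ-inducible repressor, was at 89.5 CPM without CHX and at 24.6 and 23.3 CPM with CHX. MAFF and EGR3 were measured from 120 and 88 reads without CHX, and their libraries with CHX differed by more than 2-fold. The 2 members past 2-fold in the other direction were the phosphatase gene DUSP2 (-1.21) and the kinase gene SGK1 (-1.10), both low in all libraries.

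Other short-lived regulators spread widely in both directions around a median of -0.01, which was 0.12 without replicate 1 with CHX and -0.04 without replicate 2. Of 78 listed, 68 were measured, 12 of them at least 2-fold higher (17.6%) and 5 at least 2-fold lower (7.35%), beside 7.22% and 3.08% of all genes measured. DDIT4, an inhibitor of mTORC1 that rises in many stresses, stood at 195 CPM without CHX and at 32.2 and 27.5 CPM with CHX (2.71). TXNIP, which binds thioredoxin and limits glucose uptake, stood at 182 against 33.4 and 34.1 (2.43), and its relative ARRDC4 differed by 1.98. The list shares 6 members with the p53 list, all 6 of them above both libraries with CHX and 4 at least 2-fold higher, and without these the median of the remaining 62 was -0.08, with 8 at least 2-fold higher. The 5 members at least 2-fold lower were SMAD6, HEXIM1, ID1, SMAD7 and ID3. SMAD6, an inhibitor of BMP signalling, was at 10.1 CPM without CHX against 48.0 and 49.7 CPM with CHX (-2.27), and its relative SMAD7 differed by -1.12. The inhibitors of DNA binding ID1 and ID3 differed by -1.85 and -1.10, whereas ID2 (-0.18) and ID4 (0.30) of the same family were not past 2-fold. HEXIM1, an inhibitor of the elongation factor P-TEFb, was at 14.4 CPM against 71.5 and 56.7 (-2.15).

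Transcripts that depend on NMD did not share a lower level in cells without CHX. Host genes of small nucleolar RNAs, whose spliced noncoding transcripts are classical NMD substrates, had a median of 0.01 over 29 measured of 31 listed, with 14 above both libraries with CHX (48.3%) and 12 below both (41.4%), near the 45.5% and 35.7% of all genes measured, and the median was -0.07 without replicate 1 with CHX and 0.17 without replicate 2. The 3 that were past 2-fold (10.3%) were all higher without CHX, where 7.22% of all genes measured were 2-fold higher and 3.08% lower. SNHG1 stood at 334 CPM against 111 and 129 (1.49), GAS5 at 345 against 146 and 160 (1.17) and SNHG32 at 55.2 against 21.9 and 27.8 (1.16), each above all 6 other total inputs. SNHG12 (-0.74), SNHG9 (-0.84) and SNHG22 (-0.83) lay below both libraries with CHX, the last 2 at low level. Because these counts are per gene and the strand setting of the counting is not stated, intronic small nucleolar RNAs and antisense overlaps cannot be separated from the host transcripts.

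Other reported NMD targets had a median of 0.42 over 30 genes. At least 2-fold higher were 6 (20%) and at least 2-fold lower was 1 (3.33%), HEXIM1, beside 7.22% and 3.08% of all genes measured. The list shares 4 genes with the integrated stress response and 2 with the p53 list, among them DDIT3, ASNS and GADD45A, and without these 6 the median of the remaining 24 was 0.03, with 12 above both libraries with CHX. SLC38A2, an amino acid transporter that is also induced on amino acid starvation, was 1 of the 2 remaining genes past 2-fold higher (1.07), and ATF3 was the other. UPP1 (0.90), SMOX (0.79) and GABARAPL1 (0.72) were above both libraries with CHX, whereas MIDN (-0.87), CDK11B (-0.85) and MAP3K14 (-0.80) were below both.

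Genes of the NMD machinery, several of which are themselves NMD targets in a feedback loop, were mostly near the libraries with CHX, with a median of -0.15 over 19 genes. UPF1, the central helicase, stood at 97.7 CPM without CHX against 144 and 139 (-0.54), and the kinase gene SMG1 at 395 against 353 and 358 (0.15). The helicase DHX34 was the 1 member past 2-fold (5.26%), at 29.6 CPM against 57.3 and 69.7 (-1.10), where 3.08% of all genes measured were 2-fold lower.

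Splicing factor genes, listed because many of them control their own level through poison exons, formed the most uniform list in the lower direction. Such control was not checked for each member. All 32 were measured, with a median of -0.43, and 29 lay below both libraries with CHX (90.6%), beside 35.7% of all genes measured. SRSF2 stood at 173 CPM without CHX against 420 and 440 (-1.31). SRSF6 (-1.02) and SRSF4 (-1.02) were also among the 4 members past 2-fold (12.5%), beside 3.08% of all genes. SRSF3 differed by -0.46 and HNRNPLL was the 1 member above both (0.31). Gene counts add productive isoforms and isoforms with a poison exon, so these values do not say which of them differed. The 2 libraries with CHX differed by a median of -0.01 over the list.

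The genes farthest from the libraries with CHX were a mixture. INHBE, a secreted hormone subunit that is induced in stress of the ER, had 1044 reads without CHX and 7 and 30 with CHX, and INPP5D, a phosphatase of blood cells, had 1192 against 18 and 38. FAM240A had 102 reads against 0 and 0, at least 14.5-fold higher when 3 counts per library are taken as the floor, and was at 0 in the null lines too. The stem cell receptor gene LGR6 had 156 reads against 1 and 4, a ratio of 28.5 (11.96 to 89.0), and likewise stayed at 0.124 CPM or less in the null lines. Without replicate 1 or replicate 2 with CHX, the log2 difference was 4.07 or 5.92 for INHBE and 4.13 or 5.64 for LGR6. For these 4 genes the library without CHX was above all 6 others. All 4 passed the minimum of reads only through that library and were named for their rise in it, so this is a description only.

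Other leading genes were as high or higher in some null-line libraries. They too passed the minimum of reads only through the library without CHX. IRAK1BP1 had 217 reads without CHX and 2 and 4 with CHX, a ratio of 33.0 (14.9 to 91.0), yet the null lines lay between 2.50 and 4.43 CPM, above the 2.35 CPM of the library without CHX. NR2E1 and GATA5, both transcription factors, had ratios of 29.2 (11.1 to 109) and 29.7 (7.90 to 250.4), and the highest null-line libraries, at 2.11 and 1.72 CPM, exceeded their 1.39 and 0.704 CPM without CHX, while the lowest were at 0.594 CPM for NR2E1 and at 0 for GATA5. BCHE had 155 reads without CHX and 0 and 29 with CHX, so its libraries with CHX differed more from each other than replicate 2 did from the library without CHX, and its difference of 4.50 was 1.37 without replicate 1 and 7.63 without replicate 2. Its null-line libraries were split as well, with 1 at 3.69 CPM and the other 3 at 0.083 CPM or less. Of all 1122 higher genes, 996 (88.8%) lay above all 6 other total inputs, beside 36.2% of all genes measured. Of the 478 lower genes, 472 (98.7%) lay below all 6, beside 24.0%. These shares are partly fixed in advance, because a gene was counted only if it lay outside the 2 libraries with CHX, which are among the 6.

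Of the 10 largest falls among genes with a symbol other than a clone name, 7 had a canonical transcript with a GC content above 60%. EPPK1, which encodes epiplakin, stood at 2.12 CPM without CHX against 14.0 and 19.5 with CHX (-2.95), PHRF1 at 9.0 against 51.7 and 58.9 (-2.62), TNRC18 at 19.1 against 109 and 110 (-2.52), and FBXL19 at 9.16 against 45.7 and 47.8 (-2.35). The GC content of these 4 was between 63.3% and 68.1%, beside a median of 47.9% over all genes measured, 58.3% over the 478 lower genes and 46.7% over the 1122 higher genes. Across the 15514 genes with a GC value, the difference and GC content gave a Spearman rho of -0.21, against -0.12 for replicate 2 minus replicate 1 with CHX, as a description over genes. In the tenth of genes with the highest GC content, 156 of 1552 genes were lower and 64 higher. In the tenth with the lowest, 13 of 1552 were lower and 110 higher, where 3.08% and 7.22% of all genes measured were. Higher genes were most numerous in the tenth between 45.3% and 47.9% GC, with 138 of 1551. The part of GC content in the lower genes was not tested. With the median of genes of like GC content subtracted, an alternative chosen after seeing the data, list medians were 1.14 for the integrated stress response, 0.97 for p53 targets, -0.51 for heat shock genes and -0.59 for the splicing factors.

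**Figure D4:**
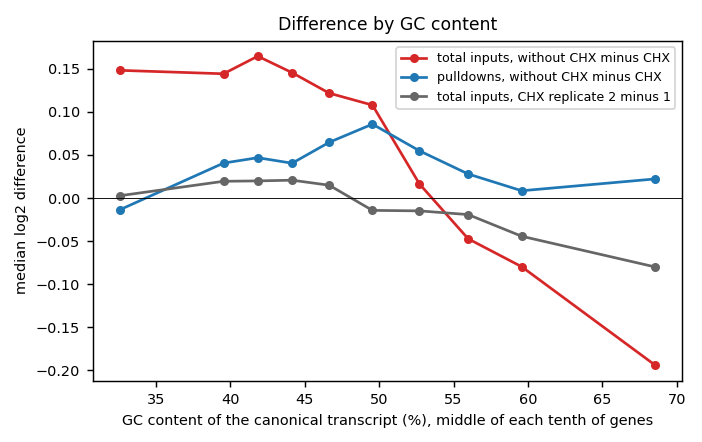
Median log2 difference on the y axis for 10 equal groups of genes ordered by the GC content of the canonical transcript on the x axis. The total inputs without CHX minus with CHX (red) run from 0.15 in the lowest to -0.19 in the highest group, replicate 2 minus replicate 1 with CHX (grey) from 0.00 to -0.08, and the pulldowns without CHX minus with CHX (blue) from -0.01 to 0.02.

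A second library exists for each lysate, the RNA pulled down with biotinylated ribosomes near the outer mitochondrial membrane. These pulldowns share the lysates and are not replicates, but they were prepared and sequenced as separate libraries. The difference without CHX minus with CHX in pulldowns was above 0 for 52.8% of all genes measured and below 0 for 47.2%. It was above 0 for 1093 of the 1122 genes that were higher in total inputs (97.4%) and below 0 for 359 of the 478 that were lower (75.1%). At least 2-fold in the same direction were 66.0% of the former and 21.8% of the latter. With the minimum applied to the reads of the pulldowns themselves, 1173 of 14680 genes counted as higher there and 498 as lower. Of the genes higher in total inputs, 675 had passed the minimum only through the library without CHX. Over all genes measured the differences in total inputs and pulldowns were related with Pearson's r at 0.69 and Spearman's rho at 0.64 across genes, the lysates being shared.

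In pulldowns the integrated stress response list had a median of 1.18, with 33 of 34 members above 0, the p53 list a median of 1.05, with 21 of 22 above 0, and the heat shock list a median of -0.31, with 19 of 24 below 0. HSPA1B was at 23.2 CPM in the pulldown without CHX and at 199.7 and 211 CPM in those with CHX, and CHAC1 at 39.2 against 3.402 and 2.95. Immediate-early genes, in contrast to total inputs, had a pulldown median of 0.43. Of the 42 members, 25 were above 0 in pulldowns and 17 below, where 52.8% of all genes measured were above 0. JUN (1.14), MYC (1.27) and PPP1R15A (2.27) were higher there than their total inputs showed (0.49, 0.53 and 0.71), whereas FOS (-0.23) and MCL1 (-0.54) were below 0 in pulldowns. The 4 GC-rich genes named above stood closer to the libraries with CHX in pulldowns than in total inputs. TNRC18, at -2.52 in total inputs, was at 100.7 CPM in the pulldown without CHX against 99.6 and 90.4 with CHX (0.09), and EPPK1, PHRF1 and FBXL19 differed by between -0.33 and -0.91 in pulldowns.

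**Figure D5:**
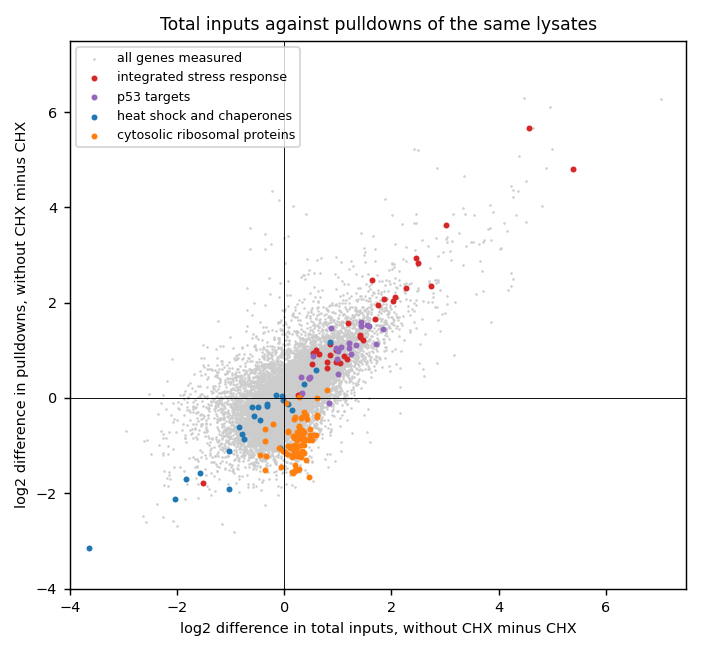
Each point is a gene measured, with its log2 difference without CHX minus with CHX in total inputs on the x axis and in pulldowns on the y axis. Integrated stress response (red) and p53 (purple) members lie in the upper right, apart from 1 red point in the lower left and 1 purple point at -0.11 in pulldowns, most heat shock members (blue) lie in the lower left, and most cytosolic ribosomal protein genes (orange) lie to the right of 0 in total inputs and below 0 in pulldowns, with medians of 0.25 and -0.88.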

How the data were processed

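RNA-seq read pairs of 50 bp were aligned to GRCh38 by the authors with STAR 2.7.1a, and a count of reads per gene of Ensembl release 99 was deposited from featureCounts 1.6.2, per the methods of the study. The labels name Bowtie and polyA RNA, whereas the methods describe an rRNA-depletion kit, and these differences could not be settled here. Strand settings are not given in the sources used here. The deposited FPKM column is 10 times the FPKM that counts and lengths give, so it was treated as a score and used in 1 alternative only. From 3 to 7 broken lines per file, of 1 gene, were left out, and 37 genes of the mitochondrial chromosome are listed at 0.

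Counts of 60663 genes were scaled by TMM (edgeR 4.0.16, R 4.3.3) over the 3 total inputs, over all 7 for values of the null lines and over the 3 pulldowns separately. Log2 CPM were computed with 0.5 counts added in proportion to library size, so differences of low genes are understated, and genes needed at least 64 reads in the library without CHX or as the mean of the 2 with CHX. With 1 library without CHX no test was run. Counting intervals (95%, exact conditional) and the floor of 3 counts cover counting error only. Promoter windows and their positions are from RefSeq on GRCh38.p14, and GC content is from GENCODE canonical transcripts. Python 3.11.15 (with matplotlib 3.10.9, scipy 1.17.1, pandas 2.3.3 and numpy 2.4.6) served for tables and plots, and DESeq2 1.42.0 gave size factors as an alternative.

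The comparison, lists and thresholds were chosen with earlier results of these data known. Genes are named if among the 10 largest rises or falls with a symbol other than a clone name, among the 4 largest differences of a list, or on a short fixed list, and other list members named were chosen after their values were seen. Results for some genes that this rule would name are not reported here. Alternatives were other scalings, minimums, folds, added counts, the FPKM column, 6 total inputs as the group with CHX, pulldowns and leaving out either replicate with CHX.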

Additional observations from a re-analysis of the deposited data

How the results depend on the processing

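With 1 library without CHX every value is a description, the spread without CHX is unknown, and depth limits genes near 64 reads. No paired analysis was possible because the group without CHX has 1 sample. Values that moved by more than 1 SD between the libraries with CHX, or counts that moved by over 1.5 times, were as follows, and the cause was not tested apart from what the setting itself fixes. Genes higher without CHX, 1122 at 64 reads and 2-fold, were 1925 at 16 reads, 555 at the highest minimum tried, 4 times the main one, 6579 with no minimum, 2629 at 1.5-fold and 174 at 4-fold, and, in alternatives chosen after seeing the data, 447 with 64 reads in both groups and 722 with the minimum matched for depth. Genes lower, 478, were 933 at 16 reads, 3066 with no minimum, 1461 at 1.5-fold and 42 at 4-fold. Leaving out either replicate gave 1056 to 1510 genes higher and 510 to 603 lower. It gave medians of -0.56 to -0.45 for heat shock, 1.18 to 1.22 for the integrated stress response, -0.038 to 0.118 for other short-lived regulators, 0.98 to 1.06 for p53 targets, -0.44 to -0.43 for splicing factors, -0.15 to 0.14 for immediate-early genes, -0.07 to 0.17 for host genes, -0.17 to -0.13 for NMD factors and 0.32 to 0.49 for other NMD targets. With 6 total inputs as the group with CHX the medians were -0.60 for heat shock, 1.26 for the integrated stress response, -0.38 for splicing factors and 0.23 for host genes. Pulldowns, with the minimum applied to their own reads, gave -0.26 for heat shock, 0.43 for immediate-early genes, -0.072 for NMD factors, 0.23 for other NMD targets, -0.14 for other short-lived regulators, -0.50 for splicing factors and -0.19 for host genes, and for TNRC18 a difference of 0.085 in place of -2.52, the 1 named gene past 2-fold that turned. With the GC median subtracted the medians were 1.14 for the integrated stress response, 0.97 for p53 targets, -0.31 for NMD factors and -0.59 for splicing factors. The integrated stress response was at 1.30 with no minimum and 1.14 with 64 reads in both groups, host genes at 0.27 at the highest minimum, and splicing factors at -0.45 with library totals, -0.44 with protein-coding totals and -0.45 with the FPKM column. Leaving out a replicate moved 4 of the largest named differences by over 1.5-fold, INHBE (4.07 without replicate 1, 5.92 without replicate 2), LGR6 (4.13 and 5.64), BCHE (1.37 and 7.63) and COL7A1 (-3.14 without replicate 1 in place of -2.55, and under the minimum of reads without replicate 2). Of 606 values of named genes under alternatives, 597 kept the sign.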

Other observations

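Genes of the cholesterol pathway, a list chosen after values were seen, had a median of -0.87. Of 15 genes, 4 were at least 2-fold lower without CHX, beside 3.08% of all genes measured, 12 lay below both libraries with CHX, beside 35.7%, and 0 above both. HMGCS1, an early enzyme of the pathway, stood at 90.4 CPM without CHX and at 218 and 235 CPM with CHX (-1.32). INSIG1, a feedback inhibitor of the pathway, differed by -0.87. CYP51A1 (-0.02), STARD4 (0.00) and SREBF2 (-0.07) did not share the size of these differences. In pulldowns 13 of the 15 were below 0.

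Cytosolic aminoacyl-tRNA synthetases, likewise chosen after values were seen, had a median of 0.54. Of 18 genes, 1 was at least 2-fold higher without CHX, beside 7.22% of all genes measured, and 16 lay above both libraries with CHX, beside 45.5%. SARS1 stood at 475 CPM against 213 and 232 (1.10) and IARS1 at 1447 against 758 and 932 (0.78), whereas HARS1 lay below both at 68.1 against 102 and 105 (-0.60). The list shares 4 genes with the integrated stress response list, and the remaining 14 had the same median, 0.54.

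Cytosolic ribosomal protein genes, 83 measured of 86 listed, differed in total inputs by a median of 0.25, with 69 above both libraries with CHX, beside 45.5% of all genes measured, and 5 below both. In pulldowns their median was -0.88, with 81 of 83 below 0, and 68 genes were above both in total inputs and below 0 in pulldowns. RPL3 had the largest difference in total inputs, 0.80.

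Small noncoding RNA genes were listed by symbol, and the list joins small nuclear and nucleolar RNAs with RN7SL and RN7SK genes and their copies. The 54 measured of 3333 listed had a median of -0.39 in total inputs, beside 0.59 in pulldowns. Of these, 17 (31.5%) were at least 2-fold lower and 1 (1.85%) at least 2-fold higher, beside 3.08% and 7.22% of all genes measured. Replication-dependent histone genes had a median of -0.02, with a median of 0.56 for replicate 2 minus replicate 1 with CHX. Zinc finger genes were taken by their ZNF symbol, without a check for a KRAB domain. The 439 measured had a median of 0.03, with 17 (3.87%) at least 2-fold higher and 10 (2.28%) lower, beside 7.22% and 3.08% of all genes measured. Genes of polyamine and methionine sensing had a median of -0.08, with SAT1 at 1.23 and MAT2A at -1.15, clock genes had a median of -0.10, and housekeeping genes -0.08, with ACTB at -1.05, TFRC at -1.23 and GAPDH at 0.16.

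Between the 2 libraries with CHX, 60 genes differed at least 8-fold, as many as the 60 that differed at least 8-fold without CHX.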
